A study of Mus musculus with 4 samples.

Results

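The 10 genes described here run energy supply in heart muscle: the creatine kinases Ckm and Ckmt2, the oxygen-binding myoglobin Mb, the glucose transporter Slc2a4, the pyruvate dehydrogenase kinase Pdk4, the mitochondrial carriers Slc25a4 and Ucp3, and the regulators Ppara, Ppargc1a and Esrra. Binding sites of CTCF were assigned to a gene by position alone, as every peak summit of the conservative peak list that lay in the annotated gene body or within 20 kb of either end. This gave 40 summits, each in the window of 1 gene only, out of 54309 in the list. The windows of the 10 genes covered 705.4 kb and the annotation held 21938 protein-coding genes in all.

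The sites come from ChIP-seq, in which chromatin fragments bound by CTCF are pulled down with an antibody and sequenced. The hearts were from adult female B6CASTF1/J mice aged 2 months, a first-generation cross of the B6 and CAST strains. Pool G, labelled biological replicate 2, and pool H, labelled biological replicate 1, each joined 2 heart biosamples and were each sequenced as 2 technical libraries. All animals share strain, sex, age and tissue, and no treatment, genotype contrast or second tissue is part of the design. Depth is unknown, because the lists give no read totals. They give no expression either, so the heart label could not be checked against marker genes. Heart tissue mixes cardiomyocytes with vascular, stromal and blood cells. A weak peak in few cells and a weak peak in all cells cannot be told apart in such data.

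Heart muscle turns over its ATP continuously. Creatine kinases carry the phosphate bond from the mitochondrion (Ckmt2) to the contractile filaments (Ckm), and Slc25a4 exchanges ADP for ATP across the inner mitochondrial membrane. Slc2a4, known as GLUT4, brings in glucose in response to insulin, while Pdk4 inactivates pyruvate dehydrogenase and so spares glucose when fat is burned. Ppara and Esrra are nuclear receptors that switch on genes of fat oxidation and mitochondria, and Ppargc1a is their coactivator. CTCF is a zinc-finger protein that binds an oriented sequence motif. It halts the extrusion of chromatin loops by cohesin, so that loops are known to form mainly between motifs that point towards each other.

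CTCF summits lay in the windows of 9 of the 10 genes, all but Pdk4. Of all protein-coding genes 80.2% had a summit in such a window, and of those with windows as long as these 82.3% did. Ppara had the most, 9 summits, more than 94.3% of protein-coding genes. That rank takes no account of length: its window was 107.8 kb, beside a median of 57.4 kb over protein-coding genes. Slc2a4 had 6, Ckmt2, Mb and Ppargc1a had 5 each, Ckm and Esrra 3 each, and Slc25a4 and Ucp3 2 each. Over the 10 windows this was 5.67 summits per 100 kb, beside 3.74 over the windows of protein-coding genes and 1.99 over the chromosomes. In windows of similar length the median was 3 summits per gene. Ckm, Esrra, Slc25a4, Ucp3 and Pdk4 did not exceed that number, and the other genes did. Most summits were outside the genes they were assigned to: 16 upstream, 10 downstream and 14 in the gene body. Of those in gene bodies 13 were intronic, 1 was in a 5' UTR and 0 were in coding exons. Each window takes in both flanks of its gene, so summits outside the gene are counted by design. The same shares over the windows of all protein-coding genes were not counted, so this split cannot be read as particular to the 10 genes.

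**Figure D1:**
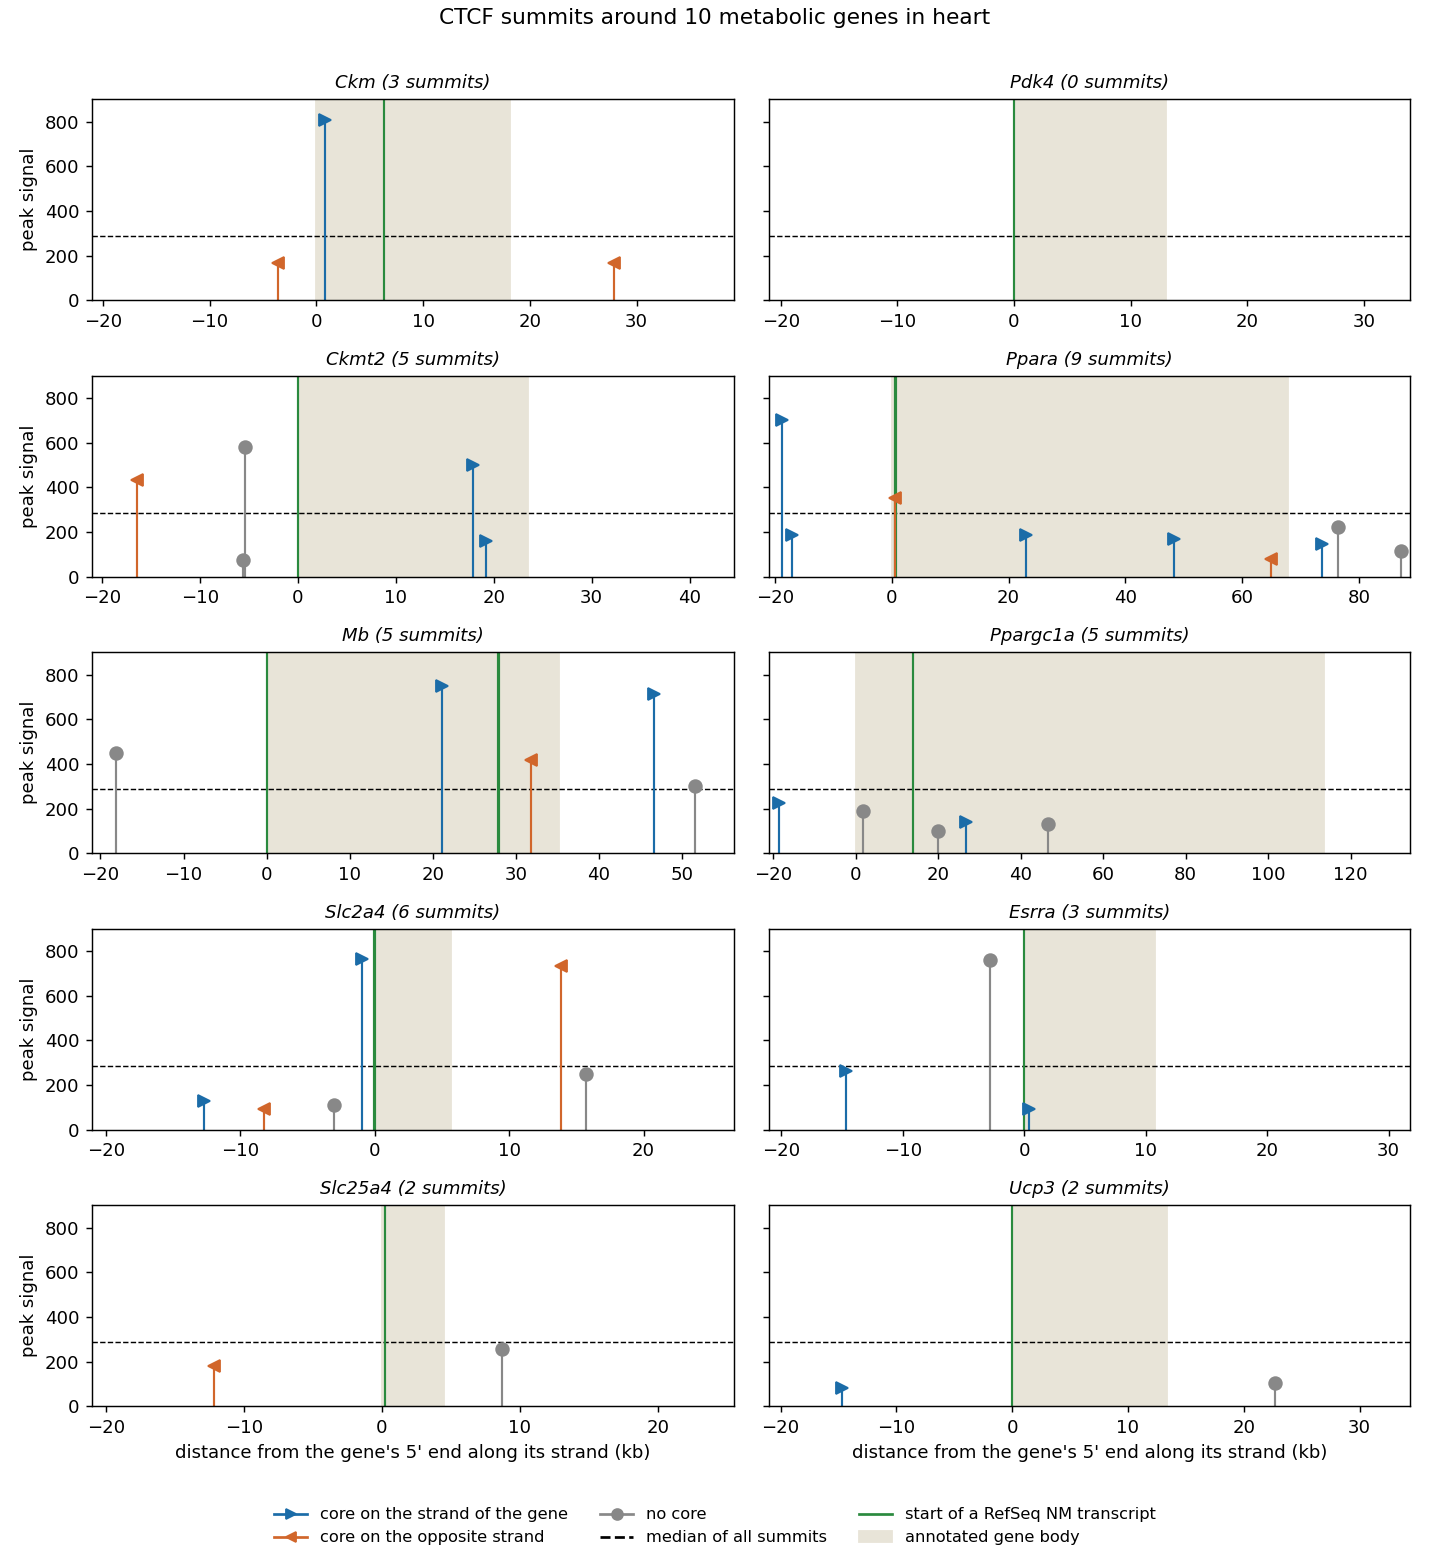
Peak signal of every conservative-list CTCF summit (vertical axis) against distance from the annotated 5' end of each of the 10 genes along its strand in kb (horizontal axis); triangles point along the strand of the CTCF core relative to the gene and circles have no core. The dashed line is the median signal of all summits, 286, the shaded band is the gene body and green lines are starts of RefSeq NM transcripts; Pdk4 has no summit.

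Sequences are shown for strong summits of Ckm, Mb, Slc2a4 and Ppara, for the promoter summits of Ppara and Esrra, and for an intronic summit of Ppargc1a with an exact core. The Esrra and Ppargc1a summits shown had signals below the list median. The search used the 12-base CTCF core with at most 1 mismatch, on both strands, centred within 100 bp of the summit. The lines give the 30 bases around the core on the strand of the core, 5' to 3', with the core in capitals. Coordinates are mm10.
Ckm, in an intron 0.78 kb from an annotated start, plus strand, chr7:19405544-19405573: acgaaaccgCCACCAGATGGCactgcgggt
Mb, in an intron, minus strand, chr15:77029537-77029566: ttccatatgCCACTAGATGGCagcaggttc
Mb, downstream, minus strand, chr15:77004061-77004090: tcttcattgCCACTAGATGGCacccagggg
Slc2a4, upstream promoter side, minus strand, chr11:69949072-69949101: ctcgctctcCCTCTAGGTGGCgccagaagc
Slc2a4, downstream, plus strand, chr11:69934313-69934342: caggagaggCCAGCAGAGGGCgcgctggga
Ppara, upstream, plus strand, chr15:85716193-85716222: ttgtcctgtCCACCAGGTGGCgccctgcac
Ppara, 5' UTR, minus strand, chr15:85735583-85735612: caagcgcgcCCAGGAGGAGGCgccaggagg
Esrra, promoter, minus strand, chr19:6921353-6921382: cccttgaggCCACGTGGGGGCgcttgcagg
Ppargc1a, intron, minus strand, chr5:51540955-51540984: acgcacagcCCAGCAGATGGCtcacctagg
The pair at Mb carries the same 12-base word, which was the best core of 498 summits in the list, with a median signal of 634. The Slc2a4 promoter core departs from the consensus at position 3 of the core, counted from its 5' end, the Ppara 5' UTR core at position 9 and the Esrra core at position 6. The other 6 cores shown match the consensus at every position.

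A further set of summits shares a single word of the core that lies in soft-masked sequence, the part of the assembly marked as repeats. It is shown because it recurs at 4 of the genes.
Ckm, upstream, minus strand, chr7:19401139-19401168: ccactgaggCCAGAAGAGGGCgtcagatcc
Slc2a4, upstream, minus strand, chr11:69960825-69960854: cctgagaggCCAGAAGAGGGCgtcatatcc
Slc2a4, upstream, plus strand, chr11:69956378-69956407: cagaagaaaCCAGAAGAGGGCatcggatcc
Ppara, intron, plus strand, chr15:85783329-85783358: ctgtaccagCCAGAAGAGGGCattgtatct
Esrra, upstream, minus strand, chr19:6936472-6936501: ccaaagaggCCAGAAGAGGGCatcggatcc
The 5 summits shown had signals of 168, 127, 91.4, 170 and 265 in the order shown, all under the list median of 286. Over the whole list this word was the best core of 6758 summits, 18.8% of those with a core, with a median signal of 163, and 99.7% of its copies there were soft-masked. The word CCAGAAGAGGGT, with its mismatch at position 12, was found at a downstream Ckm summit (signal 169) and an intronic Ckmt2 summit (501), and at 443 summits of the list with a median signal of 178.

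Ckm, the cytosolic creatine kinase of muscle on the plus strand of chromosome 7 (19404776 to 19422841), had the strongest summit of all 40. Its peak, from 19405276 to 19405801, had a signal of 806, higher than 98.6% of the summits in the list, and signals of 431 in pool G and 375 in pool H. By the GENCODE annotation it is a promoter summit, 0.78 kb inside the start of the transcript Ckm-202, which is annotated as a processed transcript without a coding sequence. The start of the coding RefSeq transcript lies 6.32 kb further along, so the summit is at -5.54 kb from that start. A weaker summit lay 3.61 kb upstream of the gene in Klc3, a kinesin light chain gene (168; pool G 85.5, pool H 86.2), and another 9.86 kb beyond its 3' end in Mark4, a kinase gene (169; 94.4 and 81.7). Both weak summits carry a core on the minus strand and the strong one a core on the plus strand.

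Ckmt2, the mitochondrial creatine kinase of striated muscle on chromosome 13 (91853387 to 91876885, minus strand), had no summit within 1 kb of its single annotated start. The nearest was at -5.38 kb with a signal of 583, with 277 in pool G and 307 in pool H. It shares its interval, 91882053 to 91882501, with a second summit of signal 76.8, the lowest of the 40. Neither of these had a core, also with 2 mismatches allowed. A summit at -16.47 kb had a signal of 432 (pool G 236, pool H 194). These 3 upstream summits lie in the body of Rasgrf2, the adjoining gene of a Ras exchange factor. Inside Ckmt2 lay intronic summits of 501 (281 and 221) and 161 (94.0 and 67.8), 17.85 and 19.22 kb from the start, both with a core on the strand of the gene.

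Mb, which encodes the oxygen-binding haem protein myoglobin, had the highest median signal of the 10 genes, 449, and all of its 5 summits were at or above the list median. The gene is annotated on the minus strand of chromosome 15 from 77015487 to 77050670, and RefSeq NM transcripts start at its 5' end and again 27.88 and 27.94 kb inside it. The strongest summit, 751 (pool G 383, pool H 369), was intronic, between those starts, 21.12 kb from the 5' end and at -3.43 kb from the nearest annotated start. A second intronic summit of 417 (232 and 185) lay 3.06 kb downstream of a start, with its core on the opposite strand. Beyond the 3' end lay summits of 711 at 11.41 kb (385 and 328) and of 302 at 16.38 kb (179 and 122). The only upstream summit, at -18.12 kb, had a signal of 449 (237 and 210) and lay 996 bp from the start of the noncoding gene Gm24753. No Mb summit lay within 1 kb of a start of Mb.

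Slc2a4, the insulin-responsive glucose transporter on chromosome 11 (69942539 to 69948188, minus strand), stood between strong summits on both sides, with none in its body of 5.7 kb. The promoter summit, -0.90 kb from the start in the peak from 69948856 to 69949332, had a signal of 765, with its core on the strand of the gene. On the other side, 8.21 kb beyond the 3' end, a summit of 731 (pool G 382, pool H 356) carried a core on the opposite strand. The promoter summit was in the pool G list (394) but not in the thresholded pool H list. Its pool H signal was 375 in the ranked list, higher than 98.6% of the pool H candidates, and its scaled irreproducible discovery rate (IDR) there was 511, where 540 is needed for a rate of 0.05. The other 4 summits were weaker, with signals of 127, 91.4 and 110 upstream and 250 downstream. The weakest of them, at -8.19 kb, was in the pool G list only, with 57.2 there and 34.5 in the ranked pool H list. The summit at -3.05 kb lay 444 bp from the start of the noncoding gene Gm12310.

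Pdk4, the kinase that shuts off pyruvate dehydrogenase, had 0 summits in its window on chromosome 6 (gene from 5483351 to 5496309, minus strand), and 0 in the thresholded lists of pool G, of pool H and in the second list of both pools. The nearest conservative summit upstream was 44.01 kb from the 5' end with a signal of 91.7, and the nearest downstream was 45.39 kb from the 3' end with a signal of 184. Among all candidates of the ranked list matched between pools, 1 lay in the window, at -55 bp from the start, with a signal of 45.1 and a scaled IDR of 67. A signal of 32.9 stood at that place in the ranked pool G list and no pool H candidate lay within 100 bp.

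The mitochondrial carriers had few and weak summits, all below the list median. Slc25a4, the ADP/ATP exchanger known as ANT1, on chromosome 8 (46206797 to 46211284, minus strand), had a summit of 179 at -12.18 kb (pool G 101, pool H 79.6) and one of 256 at 4.21 kb beyond its 3' end (152 and 101). Its only core was centred at -46.5 bp from the summit, the greatest distance among the 26 cores. Ucp3, an uncoupling protein of muscle mitochondria on chromosome 7 (100472990 to 100486432, plus strand), had a summit of 83.5 at -14.70 kb, in the gene C2cd3, and a summit of 105 at 9.26 kb beyond its 3' end. The latter is 391 bp from a start of Ucp2, the adjoining uncoupling protein gene. Each Ucp3 summit was in the list of a single pool, the upstream one of pool H (41.4) and the downstream one of pool G (63.5), and the ranked lists gave 44.7 in pool G and 44.0 in pool H for the missing values.

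Among the regulators, Ppara combined the most summits with a promoter site. The receptor gene lies on chromosome 15 (85734983 to 85802819, plus strand). Its promoter summit, in the 5' UTR 35 bp downstream of a RefSeq start, had a signal of 353 (pool G 187, pool H 170) and a core on the opposite strand. The strongest of its summits was 704 (363 and 345), at -18.78 kb, and was followed at -17.06 kb by one of 189 (110 and 80.8), both with a core on the strand of the gene. Intronic summits had signals of 185, 170 and 78.2 and all 3 had a soft-masked core. The last of these was in neither single-pool list, with ranked signals of 42.7 in pool G and 33.8 in pool H. Downstream summits of 145, 224 and 117 lay 5.76, 8.63 and 19.38 kb beyond the 3' end, the second of them 195 bp from a start of Cdpf1 and the last 466 bp from a start of Pkdrej. Only the summits of 704 and 353 were above the list median.

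Ppargc1a, the coactivator gene on chromosome 5 (51454250 to 51567726, minus strand), is the longest of the 10 at 113.5 kb, and its 5 summits had signals of 100 to 224, all below the list median. The strongest, at -18.67 kb, had 124 in pool G and 97.6 in pool H. Inside the gene lay summits of 191 (117 and 71.3), 100 (50.6 and 46.9), 141 (77.1 and 61.4) and 129 (79.8 and 51.7), all intronic and all within 46.73 kb of the 5' end. The first of these is 1.86 kb downstream of a start and at -11.92 kb from the RefSeq start, which lies 13.80 kb inside the GENCODE gene. No summit was found in the remaining body or within 20 kb of the 3' end.

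Esrra, the estrogen-related receptor gene on chromosome 19 (6910977 to 6921813, minus strand), had a weak summit at its promoter and a strong one just upstream. The promoter summit, 438 bp downstream of the RefSeq start in an intron, had a signal of 90.9 and was in neither single-pool list, with ranked signals of 47.7 in pool G and 40.6 in pool H. At -2.79 kb a summit of 762 (412 and 355) lay 263 bp from a start of Catsperz, a sperm calcium channel subunit gene. It had no core with 1 mismatch, and with 2 mismatches, at core positions 3 and 12, the best match was as follows.
Esrra, upstream, plus strand, chr19:6924599-6924628: gacgcctgcCCGGTAGGGGGAgctcagaga
The remaining Esrra summit, at -14.69 kb, had a signal of 265 (150 and 118).

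A summit within 1 kb of an annotated start was thus present at 4 of the 10 genes, Ckm, Slc2a4, Ppara and Esrra, where 34.6% of protein-coding genes had one. All 4 also passed when the outermost 5' end alone was used, beside 27.1% of genes. With the starts of RefSeq NM transcripts in place of all annotated starts Ckm dropped out and 3 genes were left, beside 30.2% of the genes that have such transcripts. Pool H alone left 2 genes, Ckm and Ppara, and pool G alone 3, Ckm, Slc2a4 and Ppara. The second list of both pools gave 5, with Mb added. A summit in the gene body was present at 6 genes, beside 50.9% of protein-coding genes. Of the 40 summits 7 lay within 1 kb of a start of another gene and 11 in the body of another gene. The same shares over all summits were not counted, so these 2 counts are not a trait of the 10 genes.

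Signals of the 40 summits ran from 76.8 to 806 with a median of 190, and 14 of them were at or above the list median of 286. For scale, 50.2% of the 43923 summits in windows of protein-coding genes were at or above it, and their median was 288. The 95% interval of the member median, from the binomial order statistics, was 161 to 302, so that 288 lies inside it. The interval treats summits as independent, although neighbours share a locus, and covers counting error only. The 14 strong summits were spread over 6 genes: 5 at Mb, 3 at Ckmt2, 2 each at Slc2a4 and Ppara, and 1 each at Ckm and Esrra. At Slc25a4, Ppargc1a and Ucp3 all summits were below the list median.

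**Figure D2:**
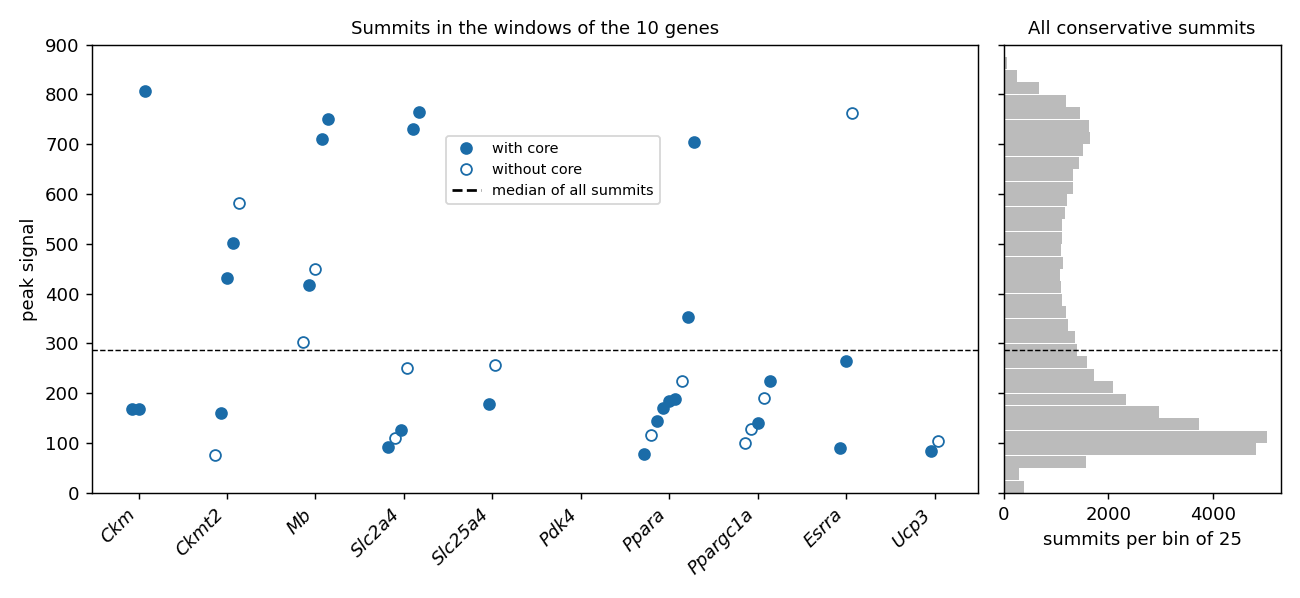
Left, peak signal of each of the 40 summits by gene, filled where the CTCF core lay within 100 bp; right, the number of all 54309 conservative summits in signal bins of 25. The dashed line is the list median of 286; the 5 Mb summits are all above it, and those of Slc25a4, Ppargc1a and Ucp3 are all below it.

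The CTCF core was found at 26 of the 40 summits, 65.0% (95% exact binomial interval 48.3 to 79.4), and at 66.1% of all summits of the list and 65.3% of those in windows of protein-coding genes, against 5.80% of windows 1 kb away. The interval again treats summits as independent, although neighbours share a locus. At 16 of the 26 the match was exact, 40.0% of summits beside 33.0% in the list. Core centres lay within 25 bp of the summit in 25 of the 26. Member summits with a core had a median signal of 187 and those without one 208, where the medians over the list were 361 and 193. Of the 26 cores, 10 were in soft-masked sequence, with signals of 78.2 to 731 and a median of 170, and 16 were outside it, with 83.5 to 806 and a median of 288. Over the list 34.2% of cores were soft-masked, with medians of 179 and 504. The part of repeats in the low median of core-bearing member summits was not tested. With 2 mismatches allowed, a match was found at 10 of the 14 remaining summits, a form present at 89.8% of all summits but also at 29.5% of windows 1 kb away.

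On the strand of the gene lay 17 of the 26 cores, 65.4% (44.3 to 82.8, exact binomial), and 9 lay on the opposite strand. Over the windows of protein-coding genes 51.1% of cores were on the strand of the gene, a share inside that interval. The interval treats cores as independent, although several share a gene window (7 at Ppara, 4 at Slc2a4), so it is too narrow for a comparison of genes. With windows of 50 kb the share at the 10 genes was 51.0%.

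Slc2a4 and Esrra were the genes whose nearest core-bearing summits on either side point towards each other. The search took the nearest summit with a core outside each gene body, however far. Of the 10 genes 2 had a convergent pair, 1, Mb, a divergent pair, and 7 a tandem pair with both cores on the same strand. Among 21683 protein-coding genes with a summit on both sides 27.9% had convergent, 25.2% divergent and 46.9% tandem pairs. The pair at Slc2a4 was the closest, 14.8 kb apart, with signals of 765 and 731, and held besides Slc2a4 only the coding gene Ybx2. At Esrra the pair was 64.8 kb apart, with signals of 265 and 367, and held 4 further coding genes, Prdx5, Trmt112, Catsperz and Kcnk4. Both genes were also called convergent in the list of each pool alone, in pool H with an upstream summit other than the promoter one at Slc2a4, since that one is not in the list. The calls changed with the form of the motif. With exact cores only, the Slc2a4 promoter core no longer counts and 1 gene had a convergent pair, Ppargc1a. With 2 mismatches they were 2, Slc2a4 and Pdk4, and with a matrix learned from the list 4, Slc2a4, Slc25a4, Ppargc1a and Esrra.

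Spans between the flanking summits had a median of 66.2 kb, beside 106.7 kb over protein-coding genes (quartiles 54.3 and 245.3). Ckm had a span of 31.5 kb and Slc25a4 one of 37.9 kb, both with no other complete coding gene inside. Ucp3 (62.5 kb) shared its span with Ucp2 and Dnajb13, and Mb (67.6 kb) with Apol6. The longest were those of Pdk4, 138.7 kb, and Ppargc1a, 199.8 kb. Between the outer ones, in the gene body, Ppara had 4 core-bearing summits, Ckmt2 and Mb 2 each, and Ckm, Ppargc1a and Esrra 1 each. The one at Ckm was its summit of 806. The Esrra summit of 762 also lay between the outer ones but had no core with 1 mismatch. A contact between such sites was not measured here.

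**Figure D3:**
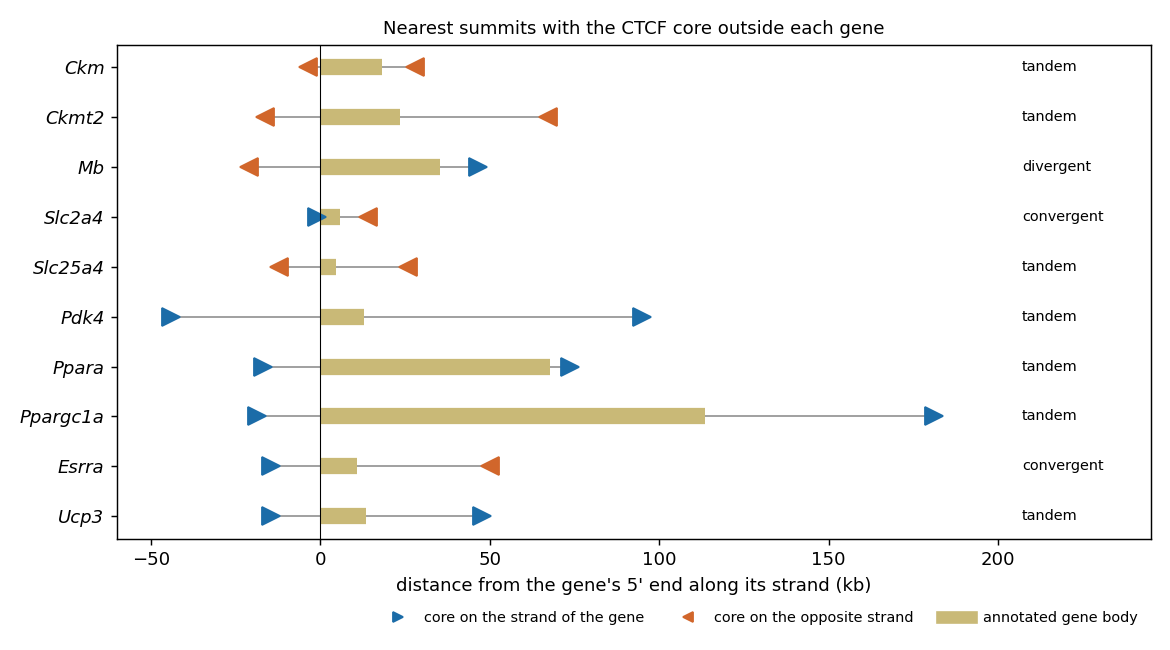
Nearest summits with the CTCF core outside each gene, as distance in kb from the gene's annotated 5' end along its strand; bars are gene bodies and triangles give the strand of the core relative to the gene. The triangles face each other at Slc2a4, 14.8 kb apart, and at Esrra, 64.8 kb apart; the span is longest at Ppargc1a, 199.8 kb.

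Most of these summits were found in each pool separately. In the thresholded lists, 36 of the 40 had a summit within 100 bp in pool G and 34 in pool H, and 33 had one in both. Of the conservative list as a whole 83.6% had both, and since that list was itself selected for agreement between pools this is no independent check. Of the 7 exceptions 3, at Ckmt2, Ppara and Esrra, were in neither list, with conservative signals of 76.8, 78.2 and 90.9. The scaled IDR of the conservative list was at its maximum of 1000 for 37 of the 40. The shares of the whole list at that maximum, and in neither single-pool list, were not counted. These counts therefore cannot be read as particular to the genes described here.

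Pool G signals exceeded pool H signals at most summits, as they did over the list. The ratio of pool G to pool H had a median of 1.26 at the 33 summits and ran from 0.901 at Ckmt2 to 1.69 at a Ppara summit, beside a median of 1.22 over the list (quartiles 1.13 and 1.35). No member ratio (0 of 33) departed from the list median by more than 1.5-fold, which 2.12% of summits in the list did. The ratio was lower at strong summits: its median was 1.15 at the 13 member summits at or above the list median and 1.31 at the 20 below, beside 1.17 and 1.33 over the list. The signal grows with depth, which is unknown for both pools, so depth and occupancy cannot be told apart in the ratio.

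**Figure D4:**
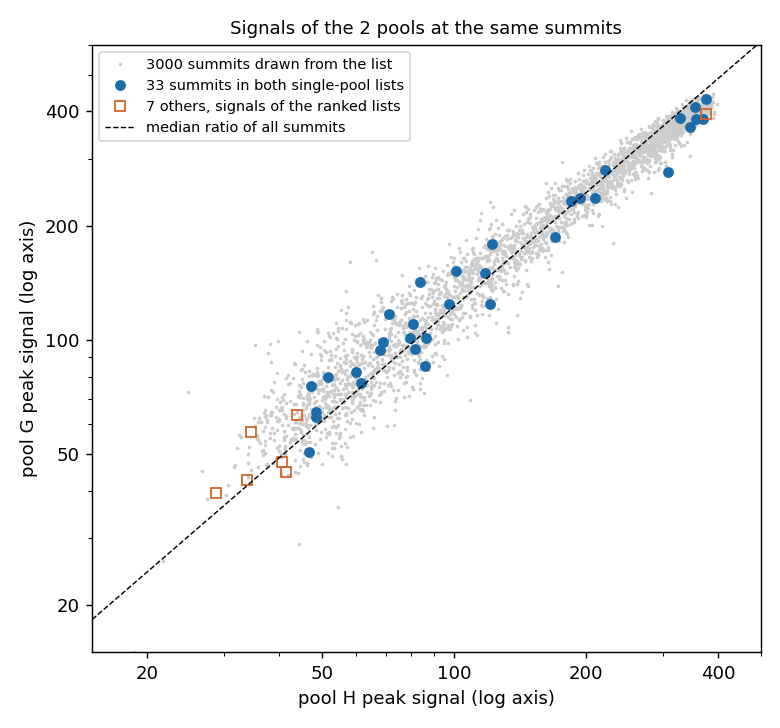
Peak signal in pool G (vertical, log axis) against pool H (horizontal, log axis) for the 33 member summits in both single-pool lists (circles) and the 7 others with signals from the ranked lists (squares), over 3000 summits drawn from the conservative list (grey). The dashed line is the median ratio of the list, 1.22; the member summits lie within the grey cloud, and the square among the strongest is the Slc2a4 promoter summit.

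Below the threshold, the ranked list matched between pools held 96 further candidates in the 10 windows. Of these 8 were in the second thresholded list of both pools, and 5 and 2 in the pool G and pool H lists. The strongest was 96.1, upstream of Ucp3, followed by 90.4 downstream of Slc2a4 and 87.2 in an Mb intron. Candidates within 1 kb of an annotated start of the gene were 13, at 8 genes. They included 81.2 at an inner start of a noncoding Ppara transcript (scaled IDR 367) and 64.8 at 762 bp from an Mb start (394). Others were 51.0 at -960 bp from a Ckm start (298) and 45.1 at Pdk4 (67). From the nearest RefSeq start the Ppara candidate was 36496 bp away, the Mb one 1526 bp and the Ckm one -1029 bp. None of these 4 reached 540 in that list, although those at Ppara and Mb were in the second list. Candidates were not counted over all protein-coding genes, so these counts cannot be read as particular to the 10 genes.

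Genes that work beside the 10 had summits in most windows too. Of 45 such genes 44 had a summit in the window, beside 80.2% of all protein-coding genes. A summit within 1 kb of a start was present at 25 of the 45, against 34.6% of protein-coding genes. Other regulators, nuclear receptors and coactivators among them, had promoter summits at 11 of 14 genes. The strongest per gene ran from 77.5 at Esrrg to 611 at Rxrb, a partner of the PPAR receptors, with 593 at Ppard and 215 at Pparg. Mitochondrial carriers had them at 5 of 8, with 773 at Slc25a5, a paralogue of Slc25a4, and 792 at the outer-membrane channel gene Vdac1. The others were weaker: 268 at Slc25a20, 191 at Slc25a12 and 105 at Ucp2, the last being the downstream summit of Ucp3. Genes of glucose transport and use had them at 7 of 15, from 98.4 at Pfkm to 532 at the hexokinase gene Hk2. The Pdk4 paralogues Pdk1, Pdk2 and Pdk3 had none. Genes of creatine and phosphate transfer had them at 2 of 6, the creatine transporter Slc6a8 (483) and Ak1 (121), and the globins Cygb and Ngb at 0 of 2. Gene length and number of annotated starts were not matched in these counts.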

How the data were processed

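The 8 deposited peak lists (4 thresholded, 4 ranked) are on mm10, per the labels, and come from 4 ChIP-seq libraries in 2 pools. Readme texts deposited with the samples assign 1 thresholded and 1 ranked list to each single pool. The others combine both pools. Aligner and peak caller: not given in the sources used here. The authors deposited the peak signal as a score without a stated unit, compared only within a list, and a scaled IDR score, of which 540 stands for 0.05 and 830 for 0.01. Depth is unknown.

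Summits (start plus offset) were placed on GENCODE M21 genes and read against GRCm38.p6, the assembly of mm10. RefSeq starts are those of NM transcripts on that assembly. The core was searched on the B6 reference, so CAST alleles were not read. Of several matches the one with fewest mismatches, then nearest the summit, was taken. Single-pool signals were matched within 100 bp. An alternative matrix was learned outside soft-masked sequence on odd autosomes. No test was made: all 10 genes are named, and counts and medians are set beside those of all genes or summits. In simulated windows of random bases, all 2024 planted cores were found, 99.7% on the planted strand, with a match in 2.18% of 1976 windows without one. The planted cores had at most 1 mismatch and lay within the searched distance, so they had to be found. This checks the search code only, and in mouse sequence 5.80% of windows 1 kb from a summit had a match.

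The genes, gene lists and settings were chosen with earlier results of these data known. Related genes: Ckb, Ckmt1, Slc6a8, Gatm, Gamt and Ak1 (creatine and phosphate transfer); Cygb and Ngb (globins); Slc2a1, Slc2a3, Slc2a8, Slc2a12, Hk1, Hk2, Pfkm, Pfkfb2, Pdk1 to Pdk3, Pdha1, Pdhb, Pdp1 and Pdp2 (glucose); Slc25a3, Slc25a5, Slc25a20, Slc25a11, Slc25a12, Ucp1, Ucp2 and Vdac1 (carriers); Ppard, Pparg, Ppargc1b, Pprc1, Esrrb, Esrrg, Rxra, Rxrb, Rxrg, Nrf1, Gabpa, Tfam, Prkaa1 and Prkaa2 (regulators). A further listed gene and the sequence of 1 site are not reported here. Python 3.11.15, numpy 2.4.6, scipy 1.17.1 and matplotlib 3.10.9 were used.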

Additional observations from a re-analysis of the deposited data

How the results depend on the processing

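Of 56 alternative values of the 8 results, 47 stayed within the interval or within 1.5 times the value reported. Windows of 50 kb gave 80 summits at the 10 genes in place of 40. Leaving out 1 pool gave 36 to 42 summits, 2 to 3 genes with a promoter summit, a median signal of 86.3 to 105 on the single-pool scale, 59.5 to 63.9% of summits with a core, 60.0 to 69.6% of cores on the strand of the gene, and in both cases 9 genes with a summit and 2 convergent flanking pairs. The share with a core was 40.0% for the exact core, 90.0% with 2 mismatches and 37.5% for the learned matrix. That matrix marks 46.4% of summits on even autosomes, X and Y, where it was not learned. All member summits but those of Slc25a4 lie on the odd autosomes used to learn it, so these 2 shares are not like for like. Convergent pairs numbered 1 with the exact core and 4 with the matrix, and with 2 mismatches the number stayed at 2 but the genes were Slc2a4 and Pdk4. RefSeq starts were added after seeing the data. No paired analysis was possible because the results come from no test and the pools enter as single lists. Depth is unknown, so how far it limits the weak sites could not be measured, and the lists give 1 value per pool.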
